A study of Bos taurus and Sus scrofa with 10 samples.

Results

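The step from the 8-16 cell embryo to the morula was examined in the pig (Sus scrofa) as the difference between 2 RNA sequencing libraries, 1 per stage. The members are genes: every row of the authors' pig table with at least 1 read per 1000000 library reads (RPM) in either library was compared, which kept 12746 of 21867 rows. No gene was chosen for its difference. A gene was called higher or lower where log2(RPM + 1) differed by at least 2 (4-fold on that scale), and "rose" and "fell" are used below for such genes alone.

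The series profiled total RNA of oocytes and preimplantation embryos of pig and cow at 5 stages, from the oocyte through embryos of 2-4 and 8-16 cells to the morula and the blastocyst, with 1 library per stage and species. Its title names DNA methylation in preimplantation development, species differences and imprinted genes. The labels describe the first library of the step as pig 8-16 cells and the other as pig Morula. They give neither breed, genotype, sex, treatment nor the way the embryos were produced, and the number of embryos in a library is not given in the sources used here. Because neither stage had a replicate, no difference below has a replicate check and no p-value is given.

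The morula forms when the blastomeres of the cleaving embryo flatten against each other, become polarised and join through adherens and then tight junctions, a process called compaction. Outer cells go on to make the trophectoderm, the transporting epithelium that pumps fluid into the blastocyst cavity, and inner cells make the inner cell mass. Before that, the embryo passes from RNA stored in the oocyte to RNA made from its own genome. In the pig the main wave of genome activation falls before the 8-16 cell stage, so embryos of both stages may transcribe while they still hold RNA of oocyte origin. RNA of oocyte origin and newly made RNA were not told apart in these libraries.

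Values are RPM, which is not divided by gene length, so they compare a gene between libraries and not one gene with another. Values over all pig libraries are given in the order oocyte, 2-4 cell, 8-16 cell, morula and blastocyst. The read total was 3166110 for the 8-16 cell library and 3002751 for the morula library, of which 81.3% and 88.7% lay in gene rows. A count of 0 allows up to 3 reads, which is 0.948 RPM for the 8-16 cell library and 0.999 RPM for the morula one. Folds against 0 reads were computed against that limit, and intervals are 95% counting intervals from the reads. Amplified reads without molecular identifiers are not independent molecules, so limits and intervals cover counting error only. Mitochondrial rows held 10.9% of the reads of the 8-16 cell library and 16.3% of those of the morula library, and counts scaled without these rows are in the closing section.

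Between the libraries, 1534 genes were higher in the morula library and 1434 were lower, which is 12.0% and 11.3% of the genes compared. The median difference over all compared genes was 0.18 on the log2(RPM + 1) scale, and 6846 genes (53.7%) lay above 0. With that median set to 0, 1292 genes were higher and 1700 lower. Of the genes named below, TEAD4, IGF2BP2, RAPGEF3, ORC4, TGFBR1, EIF1AX and DCN were then no longer past the threshold. The genes that rose held 2.74% of the reads of the 8-16 cell library and 19.7% of those of the morula library. Those that fell held 19.1% and 2.37%. Fewer cells of a type and less RNA per cell cannot be told apart in such bulk samples, and RPM values are shares of a library, not amounts per embryo.

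**Figure D1:**
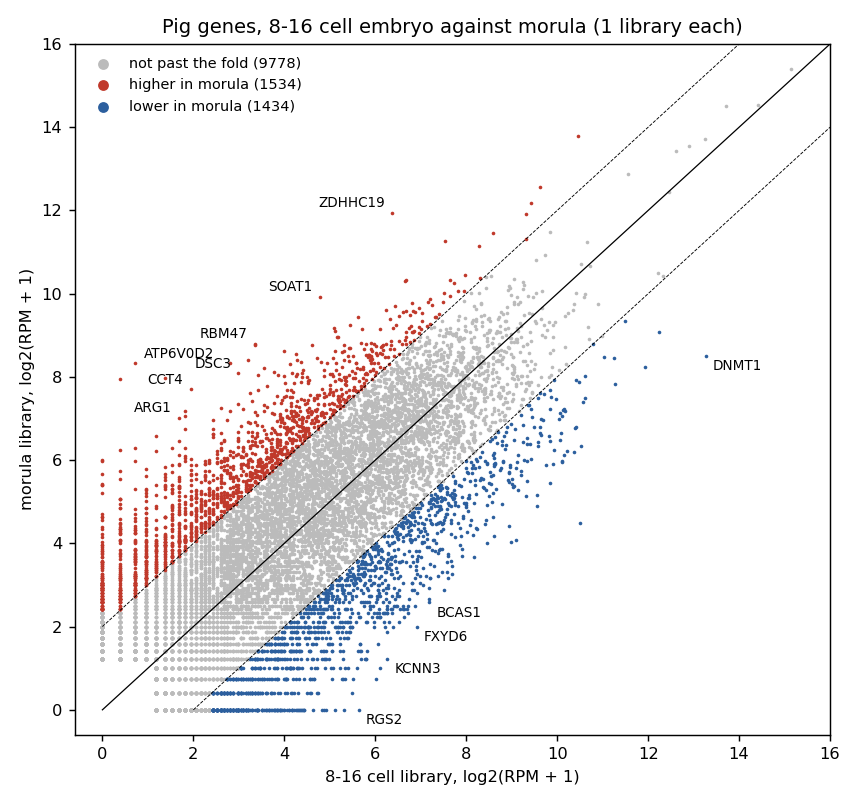
Each dot is 1 of the 12746 pig genes compared, with log2(RPM + 1) in the 8-16 cell library on the x axis and in the morula library on the y axis. The solid line marks equal values and the dashed lines a difference of 2, with 1534 higher genes in red, 1434 lower genes in blue and 12 of the named genes labelled.

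The genes that rose were mostly low before the morula. Their median level over the 5 pig libraries was 2.96, 3.14, 4.74, 41.3 and 37.4 RPM. Of the 1534 genes, 129 had 0 reads in the 8-16 cell library, and 182 (11.9%) had 3 reads or fewer in each of the oocyte, 2-4 cell and 8-16 cell libraries. In the blastocyst library 1404 of them (91.5%) had at least 1 RPM. The genes that fell ran the other way, with median levels of 43.5, 34.3, 36.01, 3.996 and 1.88 RPM. At least 1 RPM was found for 1354 of the 1434 (94.4%) in the oocyte library and for 817 (57.0%) in the blastocyst library, and 193 had 0 reads in the morula library.

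The single genes described first are the 15 largest rises and the 15 largest falls among rows that had a symbol, at least 10 RPM in either library and no overlap with another row. Some rows outside these limits had larger differences than some of the genes inside them. ATP6V0D2, the d2 subunit of the membrane sector of the proton pump V-ATPase, had the largest of these rises. The gene spans chromosome 4, 50694189 to 50749378, on the minus strand. Its levels were 0, 1.93, 0.632, 319 and 185 RPM, from 2 reads in the 8-16 cell library to 959 in the morula library. The difference was 7.62, and the ratio was 506-fold (95% interval 139.6 to 4181). DIRAS3, a small GTPase of the RAS family that is imprinted in several mammals, lies at chromosome 6, 144576365 to 144578816, on the plus strand. Its levels of 2.37, 1.21, 0.316, 74.9 and 9.92 RPM peaked in the morula library, 237-fold (95% interval 42.1 to 9412) higher than in the 8-16 cell library. Next came CCT4, a subunit of the cytosolic chaperonin that folds actin and tubulin, with 13.6, 10.1, 2.84, 207 and 193 RPM and a ratio of 72.8-fold (95% interval 38.1 to 159.9). Unlike DIRAS3, CCT4 kept its level in the blastocyst library.

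The other large rises were of genes with varied roles. SOAT1, which esterifies cholesterol for storage, had 27.8, 21.7, 26.5, 970.1 and 653 RPM and rose 36.6-fold (95% interval 29.4 to 45.98). RBM47, an RNA-binding cofactor of RNA editing, had 0.592, 10.6, 9.16, 444 and 349 RPM. For ARG1, the arginase that splits arginine into ornithine and urea, the levels were 0, 0, 2.21, 129 and 243 RPM. These 3 genes were high in both the morula and the blastocyst libraries. DSC3, a desmosomal cadherin, rose 39.01-fold (0, 4.35, 6.95, 271 and 663 RPM). RND3, which lowers actomyosin contractility, had 0.296, 0.483, 0.632, 62.3 and 25.2 RPM and a ratio of 98.6-fold (95% interval 26.9 to 820.1). The tetraspanin TSPAN6 went from 0 reads to 49.95 RPM at the step, at least 52.7-fold higher. TMEM86A also started from 0 reads and went on from 35.97 RPM to 363 RPM in the blastocyst library.

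Some genes with large rises peaked in the morula library. ZDHHC19, which encodes a palmitoyltransferase that attaches fatty acids to proteins, lies at chromosome 13, 133875643 to 134000847, on the plus strand. Its levels were 25.5, 23.4, 82.1, 3938 and 75.9 RPM, which is 47.95-fold (95% interval 42.4 to 54.4) higher than in the 8-16 cell library, and it returned to 75.9 RPM by the blastocyst. NEFL, the light chain of neurofilaments, had 0 reads in the oocyte, 2-4 cell and 8-16 cell libraries, 61.9 RPM in the morula library and 1 read in the blastocyst library. FAM149A had 0, 4.11, 0, 40.96 and 5.63 RPM. A mitochondrial pair completed these 15 rises: SUCLG1, a subunit of the citric acid cycle enzyme succinyl-CoA ligase, with 8.29, 4.11, 0.316, 45.6 and 213 RPM, and TSFM, an elongation factor of mitochondrial translation, with 2.07, 0.242, 2.53, 107 and 66.2 RPM.

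DNMT1, the maintenance DNA methyltransferase, was among the 15 falls. It lies at chromosome 2, 68981566 to 69029855, on the minus strand. Its levels were 34449, 11849, 9853, 362 and 30.03 RPM, so that it was 27.2-fold (95% interval 25.6 to 28.9) lower after the step than before it. The largest of these falls by difference was that of RAPGEF4, an exchange factor for RAP GTPases that is switched on by cyclic AMP, with 111, 61.4, 63.5, 0.666 and 0.804 RPM and a difference of -5.27. RGS2, which shortens signalling by G proteins, had 261, 50.3, 48.6, 0 and 0 RPM. With 154 reads in the 8-16 cell library and 0 in the morula library, RGS2 was at least 48.7-fold lower.

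Most of the other large falls were also of genes present since the oocyte. NLRP8, a member of an NLR family branch expressed in oocytes, had 58.03, 32.1, 43.6, 0.333 and 0 RPM. The calcium-activated potassium channel KCNN3 had 44.7, 60.4, 75.5, 1.33 and 9.65 RPM, and FXYD6, a regulator of ion transport, had 121, 67.7, 119.7, 2.997 and 0 RPM. BCAS1 levels were 227, 104, 144, 4.995 and 0.268 RPM, and those of the vesicle-trafficking gene SYTL3 53.9, 38.7, 47.7, 0.999 and 0 RPM. The pattern of a level held to the 8-16 cell library and lost in the morula library also described RWDD2A, SHE and the deubiquitinase USP27X, whose morula values were 3, 0 and 4 reads. C10orf35 was already lower before the step, with 123, 50.02, 38.8, 0 and 0 RPM. A different course was found for PTGER3, a prostaglandin E2 receptor, with 0.592, 14.98, 54.96, 1.33 and 1.34 RPM, and for the membrane serine protease TMPRSS11F, with 0, 35.3, 39.2, 0.666 and 0.268 RPM. Both were at or near 0 in the oocyte library, high in the cleavage-stage libraries and low again in the morula library. SYCN, a protein of secretory granules, had 121 reads in the 8-16 cell library and 2 in the morula library.

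**Figure D2:**
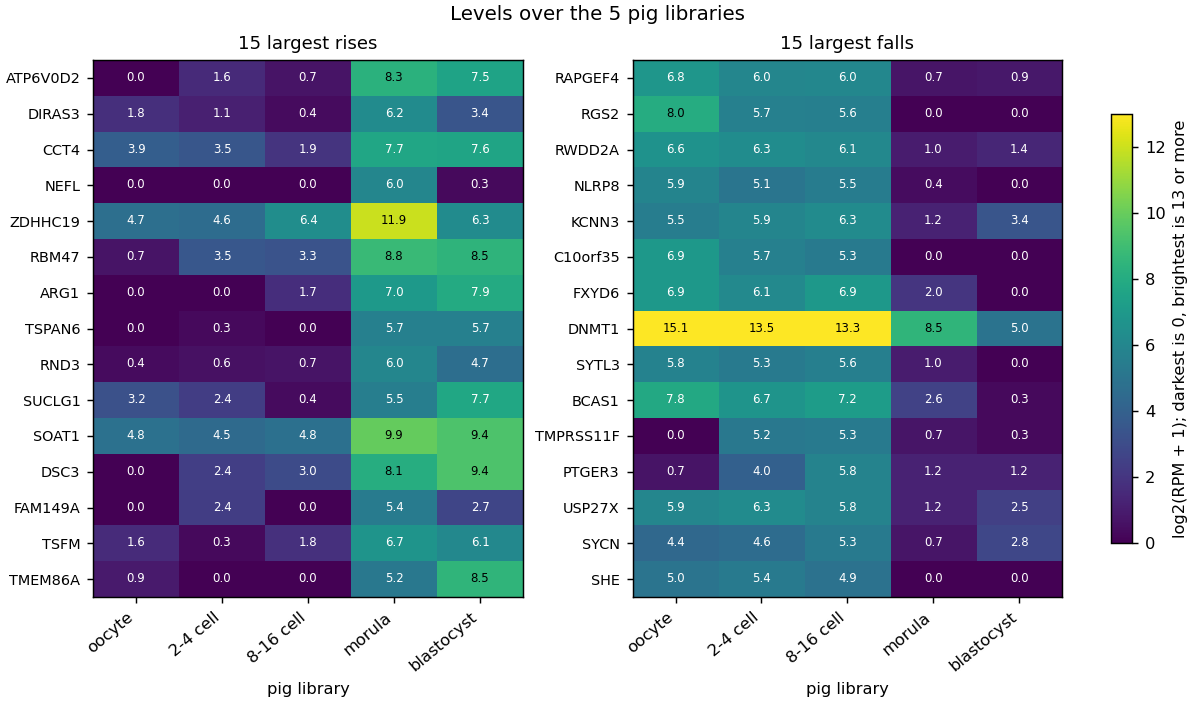
Among rows with a symbol, at least 10 RPM in either library of the step and no overlapping row, the 15 largest rises (left) and the 15 largest falls (right) are shown over the 5 pig libraries, with log2(RPM + 1) printed in each cell and colour from 0 to 13 or more. Each rise is brighter in the morula than in the 8-16 cell library and each fall darker, and the rows of ZDHHC19 and NEFL are brightest in the morula library.

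Most of the compared genes of the oocyte fell. Of 14 compared oocyte and maternal-effect genes, 10 fell (71.4%) and none rose, with a median difference of -3.12. The summed level of the list over the 5 libraries was 6808, 3483, 3444, 487 and 106 RPM. BMP15, a growth factor secreted by the oocyte, had 2361, 1648, 1476, 79.6 and 5.09 RPM and was 18.5-fold (95% interval 16.3 to 21.2) lower in the morula library. H1FOO, the linker histone of the oocyte, had 416, 142, 205, 8.66 and 0 RPM. NOBOX, a transcription factor of oocyte differentiation, went from 65 reads in the 8-16 cell library to 0, at least 20.5-fold lower. Each subgroup held at least 1 gene that fell: 1 of 3 zona pellucida genes, both growth factors, both compared genes of the subcortical maternal complex, 3 of 5 transcription factors and both chromatin genes. TAF4B, a subunit of a general transcription factor, did not follow, with 40.6, 42.3, 133, 234 and 54.4 RPM.

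Proteins that store maternal mRNA showed a similar course. Of 10 genes compared, 5 fell and 1 rose, with a median of -1.64. CPEB1, which controls polyadenylation of stored mRNA, had 137, 76.1, 72.01, 3.33 and 0 RPM. YBX2, a packaging protein of germ cell mRNA, had 45.9, 57.7, 61.6, 3.33 and 0 RPM, and ZAR1L, a relative of the maternal-effect gene ZAR1, had 119.6, 35.3, 41.4, 3.33 and 0 RPM. EIF4ENIF1, which sequesters the cap-binding protein, fell 7.29-fold. The IGF2 mRNA-binding proteins moved in opposite directions: IGF2BP3, whose span overlaps another row, had 600.1, 1010.0, 689, 149.5 and 97.3 RPM, and IGF2BP2 had 7.40, 17.6, 22.4, 100.2 and 156 RPM. With the median difference set to 0 the difference of IGF2BP2 was 1.94, under the threshold.

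The enzymes that remove maternal mRNA did not share this fall. Of 19 mRNA decay genes compared, 1 fell and none rose, with a median of -0.10. That 1 gene was BTG4, an adaptor that brings the deadenylase complex to maternal transcripts, with 1674, 670.3, 635, 33.97 and 20.9 RPM. Its span overlaps another row. Among 17 genes of meiotic M-phase control, 3 fell and none rose. They were the oocyte kinase WEE2 (1976, 1532, 1313, 72.6 and 1.07 RPM), the meiotic kinase MOS (92.1, 30.9, 29.1, 1.33 and 1.34 RPM) and FBXO43, an inhibitor of the anaphase-promoting complex that holds the egg in metaphase (182, 193, 150.3, 13.3 and 0 RPM). The mitotic cyclin CCNB1 did not pass the fold, with 513, 510.1, 335, 512 and 35.1 RPM. In the list of cyclic AMP, G protein and calcium signalling, through which meiotic arrest and resumption are regulated, 6 of 21 genes fell and 1 rose. Besides RAPGEF4 and RGS2, the phosphodiesterase PDE4D fell, with 119, 449.7, 488, 20.3 and 187 RPM. RAPGEF3, a close relative of RAPGEF4, rose from 1 read to 14.

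Genes for making protein and for oxidative energy production were prominent among those that rose. Of 47 cytosolic ribosomal protein genes compared, 40 rose (85.1%) and none fell, the median difference was 2.55, and all 47 differences were above 0. Their summed level was 571, 277, 890, 6543 and 26290 RPM over the 5 libraries. Both subunits took part, with 20 of 26 large subunit genes and 20 of 21 small subunit genes higher. RPS3A had 4.74, 0.242, 12.6, 278 and 880.2 RPM and a ratio of 22.04-fold (95% interval 16.05 to 31.1). RPS12 had 19.8, 3.38, 23.4, 432 and 2322 RPM. The largest difference, 4.66, was that of RPL36AL, from 3 reads to 145, a ratio of 50.96-fold (95% interval 17.1 to 250.00). Ribosomal protein genes have many processed pseudogenes with near-identical sequence, and how reads that match several places were counted is not given in the sources used here, so the split between single members is uncertain. With the median difference set to 0, 35 of the 47 remained past the fold.

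Nuclear genes of the respiratory chain formed the other large group, with 29 of 43 higher (67.4%), none lower and a median of 2.35. On the log2(RPM + 5) scale, which gives low genes less weight, 15 of the 43 were higher, with a median of 1.54. Their summed level went from 882 and 334 RPM in the oocyte and 2-4 cell libraries to 527, 2869 and 6694 RPM in the later ones. All 4 compared subunits of complex III rose, as did 14 of 22 of complex I, 1 of 2 of complex II, 4 of 7 of complex IV and 6 of 8 of ATP synthase. NDUFB8 of complex I had 11.5, 2.42, 0.948, 54.6 and 59.5 RPM, a ratio of 57.6-fold (95% interval 19.4 to 282) from 3 reads in the 8-16 cell library. NDUFS5, also of complex I, had 11.5, 3.87, 0.948, 34.3 and 86.3 RPM. UQCRC2, a core subunit of complex III whose span overlaps another row, had 2.07, 0.725, 4.42, 123 and 153 RPM and rose 27.8-fold (95% interval 16.4 to 51.3). Of the 43 compared genes, 23 overlap another row, and reads from the strands cannot be told apart because strand use in counting is not given in the sources used here.

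Among mitochondrial ribosomal proteins, 12 of 51 were higher (23.5%) and none lower, with a median of 1.28. MRPL51 (0.948 to 27.6 RPM), MRPL39 (5.05 to 62.3 RPM) and MRPS18C (11.7 to 88.3 RPM) had the largest rises, and all 3 overlap other rows. Named genes of the mitochondrial genome itself moved less: the 10 of them differed by between -0.21 and 1.32, with a median of 0.36, and none passed the fold. Of 32 mitochondrial rows, 3 rose, none of which has a symbol in the table. These 3 rows lie next to each other on the mitochondrial genome, at positions 1246 to 2205, 2206 to 2273 and 2274 to 3844. The outer rows of this stretch were abundant: ENSSSCG00000018063 went from 1415 to 14114 RPM and ENSSSCG00000018061 from 789 to 6018 RPM. Mitochondrial carriers, which move metabolites across the inner membrane, had 8 of 28 genes higher and 3 lower. SLC25A3, the phosphate carrier, had 2.07, 0, 17.1, 271 and 728 RPM, and SLC25A20, the carnitine carrier, had 7.11, 5.80, 0.948, 38.6 and 12.9 RPM. SLC25A31, an ADP/ATP carrier of germ cells, went from 30 reads to 0.

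**Figure D3:**
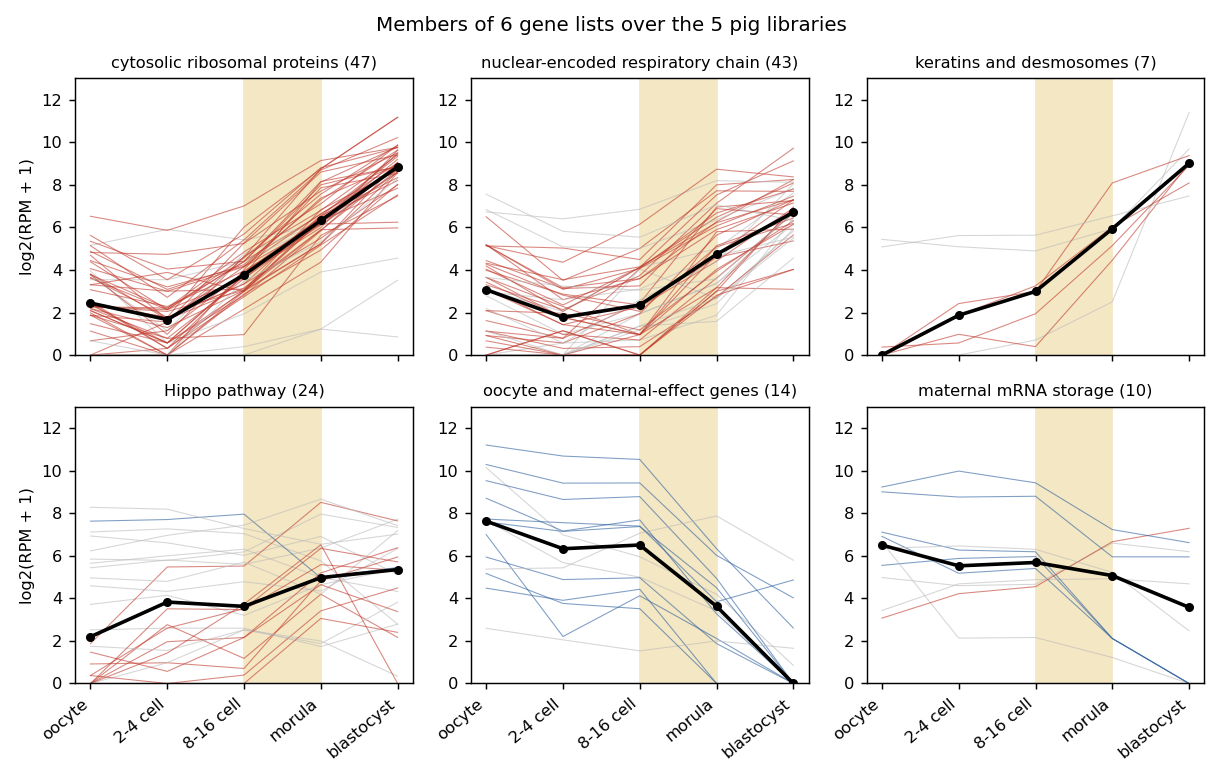
Levels of the compared members of 6 gene lists over the 5 pig libraries, with log2(RPM + 1) on the y axis, 1 thin line per gene (red higher, blue lower, grey not past the fold at the step) and the median per library in black. The shaded band is the step, where the medians of ribosomal, respiratory chain, desmosome and Hippo genes go up and those of oocyte and storage genes go down.

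Lists for making and folding RNA and protein had more higher than lower genes. In ribosome biogenesis 8 of 40 genes rose and 1 fell, with a median of 1.03. PES1, a factor for maturation of the large subunit, had 7.70, 3.14, 5.69, 64.9 and 50.9 RPM, and the RNA helicase DDX47 had 1.48, 5.56, 1.90, 25.3 and 13.9 RPM. WDR12, a partner of PES1, had 22.2, 14.3, 18.003, 139 and 41.02 RPM, high in the morula library compared with the others. NAT10, an RNA acetyltransferase of the nucleolus, fell, with 1028, 802, 476, 109 and 312 RPM. In splicing and hnRNP genes 7 of 36 rose and none fell, with LSM2 (0.948 to 12.99 RPM), LSM4 (3.47 to 29.97 RPM) and HNRNPR (24.95 to 145 RPM) in front. None of the 16 splicing factors outside the snRNP and hnRNP groups passed the fold.

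Translation initiation factors had 6 of 26 genes higher, none lower and a median of 1.56. EIF2S1, the alpha subunit of the factor that brings the initiator tRNA, had 37.01, 34.6, 42.01, 335 and 82.3 RPM, and EIF3A, the largest subunit of eIF3, had 34.6, 46.2, 199.9, 1295 and 710.5 RPM. Both overlap other rows. EIF1AX had 77.3, 84.6, 169, 734 and 239 RPM. Of 31 proteasome subunits, which degrade tagged proteins, 8 rose and none fell. The largest rises were those of PSMC6 (28.4 to 258 RPM), PSMB6 (10.1 to 63.3 RPM) and PSMD6 (32.8 to 187 RPM). Of 27 heat shock proteins and chaperones, 9 rose and 1 fell. CANX, a chaperone of the endoplasmic reticulum, had 134, 66.7, 48.3, 692 and 832 RPM, and HSPE1, the small mitochondrial chaperonin, had 150.1, 135, 62.2, 439.6 and 467 RPM. HSPA2, a chaperone abundant in germ cells, went from 22 reads to 1.

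Keratin and desmosome genes are given first among those of cell contact. Of 7 compared keratin and desmosome genes 4 rose (57.1%), all of them desmosomal, and none fell. The median was 2.77. DSG2, a desmosomal cadherin, went from 1 read to 63 and to 515 RPM in the blastocyst library. PERP had 0.296, 0.483, 2.84, 34.3 and 481 RPM and PKP2, a plaque protein, 0, 2.66, 8.53, 63.9 and 271 RPM. DSP, the desmosomal linker to keratin filaments, had 42.3, 33.1, 28.7, 60.3 and 823 RPM, not past the fold. The keratins KRT8 and KRT18, which mark trophectoderm, were still near 0: KRT8 went from 0 reads to 1 at the step and to 3629 RPM in the blastocyst library, and KRT18 had 0, 0, 0.632, 4.66 and 2681 RPM. The desmosomal rise thus stood in a morula library in which these keratins were at 1 and 14 reads.

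In the adherens junction and polarity list 4 of 24 genes rose (16.7%, near the 12.0% of all compared genes) and none fell. MSN, which ties the actin cortex to the membrane, went from 2 reads to 116, a ratio of 61.2-fold (95% interval 16.6 to 511), and on to 902 RPM in the blastocyst library. JUP, a catenin shared by desmosomes and adherens junctions, had 0.888, 1.93, 6.95, 91.6 and 292 RPM. PARD6B, a polarity protein of the apical domain, had 98.6, 100.3, 178, 892 and 127 RPM and overlaps another row. CDH2, N-cadherin, had 0, 6.77, 4.11, 25.6 and 0.536 RPM. The catenin CTNNB1 did not pass the fold, with 423, 328, 223, 282 and 278 RPM, nor did the apical kinase gene PRKCI, with 75.8, 85.3, 85.9, 85.3 and 53.9 RPM. E-cadherin is listed under no row with the symbol CDH1, and no value is given.

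Of 14 tight junction genes 4 rose (28.6%) and none fell. CLDN8 and CLDN7, sealing claudins, had 0, 0, 3.16, 18.6 and 63.8 RPM and 0.888, 1.45, 2.53, 19.6 and 281 RPM. The span of CLDN7 overlaps another row. MARVELD3 went from 0 reads to 16. TJP1, a plaque protein, had 738, 612, 333, 191 and 469.7 RPM and did not pass the fold.

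The Hippo pathway reads cell contact and polarity through a kinase cascade that keeps the coactivators YAP1 and WWTR1 out of the nucleus, and in the early embryo this separates outer from inner cells. Of 24 genes 10 rose (41.7%) and 1 fell, with a median of 1.33, against 12.0% and 11.3% of all compared genes. On the upstream side, the scaffold WWC1 went from 2 reads to 82, a ratio of 43.2-fold (95% interval 11.6 to 363), and AMOTL2, an angiomotin that binds YAP1, went from 1 read to 29, a ratio of 30.6-fold (95% interval 5.07 to 1249). FRMD6, an activator of the cascade, was the gene that fell, with 197, 208, 248, 30.3 and 42.9 RPM. On the transcriptional side, WWTR1 had 0, 2.90, 3.47, 35.6 and 82.3 RPM, and TEAD4, the DNA-binding partner, had 0, 10.4, 10.1, 46.96 and 38.9 RPM. TEAD4 was close to the threshold, with 2.11, and at 1.93 with the median difference set to 0. YAP1 itself did not pass the fold, with 309.7, 291, 155, 92.2 and 129 RPM. With either the median set to 0 or quantile normalisation, 9 of the 24 genes were higher, and on the log2(RPM + 5) scale 5 were, with a median of 1.17.

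Pumps and channels fill the blastocyst cavity. Of 7 compared genes 2 rose, both aquaporins. AQP9 went from 0 reads to 126 (0.296, 0.483, 0, 41.96 and 81.5 RPM) and overlaps another row, and AQP11 had 0, 0.242, 0.632, 13.3 and 0.268 RPM. AQP3 had 1 read in the morula library, against 73.5 RPM in the blastocyst one. The V-ATPase, which acidifies endosomes and lysosomes, had 3 of 18 subunit genes higher (16.7%, near the 12.0% of all compared genes) and none lower. Beside ATP6V0D2 these were ATP6V1A, a catalytic subunit, with 52.4, 40.1, 32.5, 349 and 303 RPM, and the accessory subunit ATP6AP1, with 3.26, 2.42, 1.26, 34.6 and 147 RPM. The d1 paralogue ATP6V0D1 stayed low in both libraries, with 7.99, 5.80, 5.37, 4.66 and 73.2 RPM. Among 19 lysosomal genes 6 rose and 1 fell: CTSC (14.8 to 117 RPM), NPC2 (2.21 to 20.98 RPM) and CD63 (0.316 to 6.33 RPM) had the largest rises, and the protease CTSB fell (46.1 to 7.66 RPM). CTSC, NPC2 and CTSB overlap other rows.

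Lineage factors gave a mixed picture. Of 11 pluripotency factors 4 rose (36.4%) and 1 fell. TBX3 had 0.296, 1.69, 11.4, 220.1 and 135 RPM and rose 19.4-fold (95% interval 13.8 to 27.9). ESRRB had 18.7, 30.4, 61.9, 321 and 158 RPM, and ZFP42 (REX1) had 0, 2.42, 1.26, 15.99 and 32.7 RPM. PRDM14 had 0, 0.483, 2.21, 15.3 and 0 RPM. DPPA5 fell from 55 reads to 2. NANOG stayed at 8 reads in each library of the step, and SOX2, with 1.18, 1.93, 2.53, 10.3 and 0 RPM, did not pass the fold. No row carries the symbol POU5F1, and no value is given.

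Of 10 trophectoderm factors 2 rose and 1 fell. Beside TEAD4, ELF5 rose from 4 reads to 39 (0, 0.242, 1.26, 12.99 and 12.3 RPM). TFAP2A fell from 16 reads to 1, a ratio of 15.2-fold (95% interval 2.36 to 636), before reaching 212 RPM in the blastocyst library. Its relative TFAP2C had 19.8, 30.2, 183, 502 and 346 RPM and did not pass the fold. CDX2 had 0 reads in the 8-16 cell and morula libraries and 8.85 RPM in the blastocyst library. GATA3 was also low in both, with 0, 1.69, 3.47, 0.999 and 173 RPM. GATA6, a factor of the primitive endoderm, rose early in comparison, with 0, 4.83, 19.6, 234 and 261 RPM and a ratio of 11.96-fold (95% interval 9.21 to 15.8). Set against the stage label, the morula library had low oocyte genes and higher TBX3, GATA6 and desmosomal genes, and CDX2, KRT8, AQP3 and GATA2, all detected in the blastocyst library, had 0 or 1 read in it.

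Few regulators of genome activation passed the fold. Of 19 compared genes 1 rose and none fell, with a median of 0.90. That gene was MYCN, which overlaps another row and had 0, 2.17, 22.1, 104 and 39.7 RPM. KLF17 and NR5A2, transcription factors linked to genome activation, had 0, 10.1, 72.01, 70.6 and 12.3 RPM and 0, 13.05, 95.7, 117 and 4.29 RPM. Both were at 0 reads in the oocyte library and at about the same level in the libraries of the step. CHD1, a chromatin remodeller, had 316, 341, 483, 1094 and 266 RPM and did not pass the fold.

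In the DNA methylation machinery 6 of 18 genes fell (33.3%) and 3 rose. Of the 6 falls 4 were among the 5 compared enzymes that write the mark and proteins that recruit them, and the others were TET3 and ZNF445 (105 to 19.98 RPM), a zinc finger protein that protects imprints, whose row overlaps another. UHRF1, which brings DNMT1 to replicated DNA, had 41.4, 38.7, 30.6, 1.998 and 5.36 RPM, and its paralogue UHRF2 had 6436, 6751, 4835, 541 and 137 RPM. DNMT3A, a de novo methyltransferase, had 175, 166, 176, 20.98 and 42.4 RPM. DNMT3B did not pass the fold, with 412, 414, 282, 91.6 and 114 RPM. The TET dioxygenases, which oxidise the mark, differed from each other: TET1 rose (4.14, 10.4, 14.8, 109.9 and 420.4 RPM), TET3 fell (27.5, 33.6, 39.5, 4.33 and 5.36 RPM) and TET2 was level at the step (70.5, 98.3, 94.4, 92.9 and 488 RPM). ZFP57, a zinc finger protein that protects imprints, had 0 reads in the oocyte, 2-4 cell and 8-16 cell libraries, 19 in the morula library and then 39.9 RPM at the blastocyst stage. MBD4, a DNA glycosylase whose row overlaps another, rose from 5 reads to 44.

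Of 23 imprinted genes, expressed from 1 parental copy in mammals, 4 were higher (17.4%) and 5 lower (21.7%). The shares of all compared genes were 12.0% and 11.3%. On the log2(RPM + 5) scale 1 imprinted gene was higher and 5 were lower. Beside DIRAS3, NDN rose from 0 reads to 20 and PON2 had 0.888, 0.242, 5.37, 34.97 and 10.5 RPM. ZIM2 had 61.9, 67.7, 75.8, 4.33 and 4.56 RPM. MEST and COPG2, neighbours that overlap each other or other rows, had 200.4, 207, 225, 28.6 and 65.7 RPM and 329.8, 425, 391, 59.3 and 104 RPM. Imprint status in the pig was not measured here. Among 32 histone methylation enzymes, 5 fell (15.6%) and 2 rose (6.25%), against 11.3% and 12.0% of all compared genes. SUV39H2 (254 to 30.3 RPM) and KMT2A (210.4 to 32.97 RPM) fell and KDM4B went from 17 reads to 0. KDM4A (15.8 to 83.6 RPM) and JARID2 (58.4 to 281 RPM) rose. NAP1L1, a histone chaperone, had 42.04, 35.8, 101, 761 and 455 RPM.

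In glucose uptake and glycolysis 3 of 23 genes rose (13.04%) and none fell, close to the share of all genes, with a median of 0.20. LDHB, a subunit of lactate dehydrogenase, had 95.6, 95.9, 99.8, 1265 and 3092 RPM, and PGAM1 had 0, 2.42, 32.5, 257 and 176 RPM. The glucose transporter SLC2A2 rose from 5 reads to 72 and overlaps another row. In cholesterol and lipid droplet genes 6 of 29 rose and 2 fell. PLIN2, the coat protein of lipid droplets, in which pig embryos are rich, had 133, 18.6, 16.4, 317 and 1109 RPM. PLIN2 was high in the oocyte library, low in the cleavage-stage libraries and high again from the morula library on. SC5D had 8.88, 4.11, 2.84, 32.3 and 121 RPM, and ACADVL, an enzyme of fatty acid oxidation that overlaps another row, rose from 3 reads to 63. FDFT1, squalene synthase, fell (1145, 541, 489, 43.6 and 236 RPM), and so did HSD17B7 (51.2 to 10.99 RPM).

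Among replication genes 3 of 38 rose and 2 fell, both shares below those of all compared genes. PCNA, the sliding clamp, had 2962, 4190.1, 2888, 646 and 199 RPM and overlaps another row. POLD3 fell (122 to 25.98 RPM). RRM2, the inducible subunit of ribonucleotide reductase, had 9.77, 5.80, 12.3, 108 and 62.2 RPM. LIG1 rose from 2 reads to 21 and ORC4 had 60.01 to 246 RPM, just past the fold at 2.02. Of 21 G1 and S phase genes 3 rose (14.3%) and 2 fell (9.52%), near the shares of all compared genes. CDK6 had 1.18, 5.56, 2.53, 77.3 and 245 RPM, CDKN1B rose from 2 reads to 25 and E2F5 from 2 to 21, while the inhibitor CDKN2B (110.1, 55.6, 67.9, 3.66 and 0 RPM) and RBL2 (646, 676, 385, 48.6 and 133 RPM) fell. In apoptosis regulators 3 of 20 rose and 3 fell (15% each), near the 12.0% and 11.3% of all compared genes. With the median difference set to 0, 1 was higher and 3 were lower. MDM2, a ubiquitin ligase, rose, with 4.44, 5.07, 27.2, 326 and 782 RPM. BCL2L1, which protects from apoptosis and overlaps another row, had 234, 215, 344, 22.6 and 98.4 RPM, and BCL2L14 had 104, 79.98, 83.1, 2.997 and 1.88 RPM.

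FGF and ERK signalling and WNT signalling had larger shares of lower genes than the 11.3% of all genes. That of TGF-beta and BMP signalling was similar, at 11.5%. In FGF and ERK signalling 5 of 22 genes fell (22.7%) and 2 rose. The ligand FGF1 had 42.9, 50.7, 35.4, 2.997 and 0 RPM, the receptor FGFR2 rose (10.95, 10.9, 4.74, 46.6 and 69.98 RPM), and of the feedback genes SPRED2 (786, 995, 1117, 146 and 15.8 RPM) and ETV5 (133 to 15.3 RPM) fell and SPRY4 (12.9 to 102 RPM) rose. WNT signalling had 6 of 30 lower (20%) and 3 higher. Its nuclear effectors LEF1 (247, 285, 226, 21.3 and 12.3 RPM) and TCF7 (80.5 to 9.32 RPM) and the receptor FZD5 (43.6 to 3.996 RPM) fell, and PORCN, which acylates WNT ligands, rose (1.18, 4.35, 1.90, 41.6 and 0.268 RPM). For TGF-beta and BMP signalling the counts were 2 higher and 3 lower of 26. The type I receptors moved apart, with ACVR1B lower (97.998, 86.02, 64.7, 3.996 and 2.95 RPM) and TGFBR1 higher (17.2, 19.8, 19.3, 88.9 and 69.4 RPM). SMAD5 fell (462 to 75.9 RPM), and ID3 went from 22 reads to 0.

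Some large gene families were chosen by name. Of 188 solute carriers outside the mitochondrial family 22 rose (11.7%) and 24 fell (12.8%), with a median of 0.01, both shares near those of all genes. SLC1A3, a glutamate transporter, went from 0 reads to 124, and SLC6A8, the creatine transporter, had 0, 0, 18.003, 377 and 757 RPM. Both overlap other rows. SLC34A2, a phosphate transporter, had 0, 0, 35.1, 496 and 10.2 RPM, highest in the morula library. SLC46A2 (73.3 to 3.996 RPM), SLC6A6 (22.7 to 0.666 RPM) and SLC8A1 (119 to 9.99 RPM) fell most. Of 200 genes named ZNF, 14 rose (7%) and 21 fell (10.5%). In ubiquitin-specific proteases and E2 enzymes 7 of 58 rose (12.1%) and 9 fell (15.5%), both near the shares of all compared genes. Of 9 protocadherins, adhesion proteins of the cadherin superfamily, 4 fell and none rose: PCDH9 (0, 5.07, 42.6, 2.66 and 0.268 RPM), PCDH17 (0.592, 90.1, 58.7, 5.66 and 0 RPM), PCDH18 (0.888, 0.725, 13.6, 0.666 and 0 RPM) and PCDH15 (123, 79.5, 75.5, 9.66 and 1.88 RPM). Of these PCDH15 was high in the oocyte library, and PCDH9 and PCDH18 were highest in the 8-16 cell library. Further named genes whose rows overlap others are DSG2, PSMC6, PSMD6, FDFT1, RBL2, ORC4, SPRY4, PRKCI, VCAN, ATP6V0D1, PCDH17 and AKAP4, and reads of such pairs may have been shared.

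**Figure D4:**
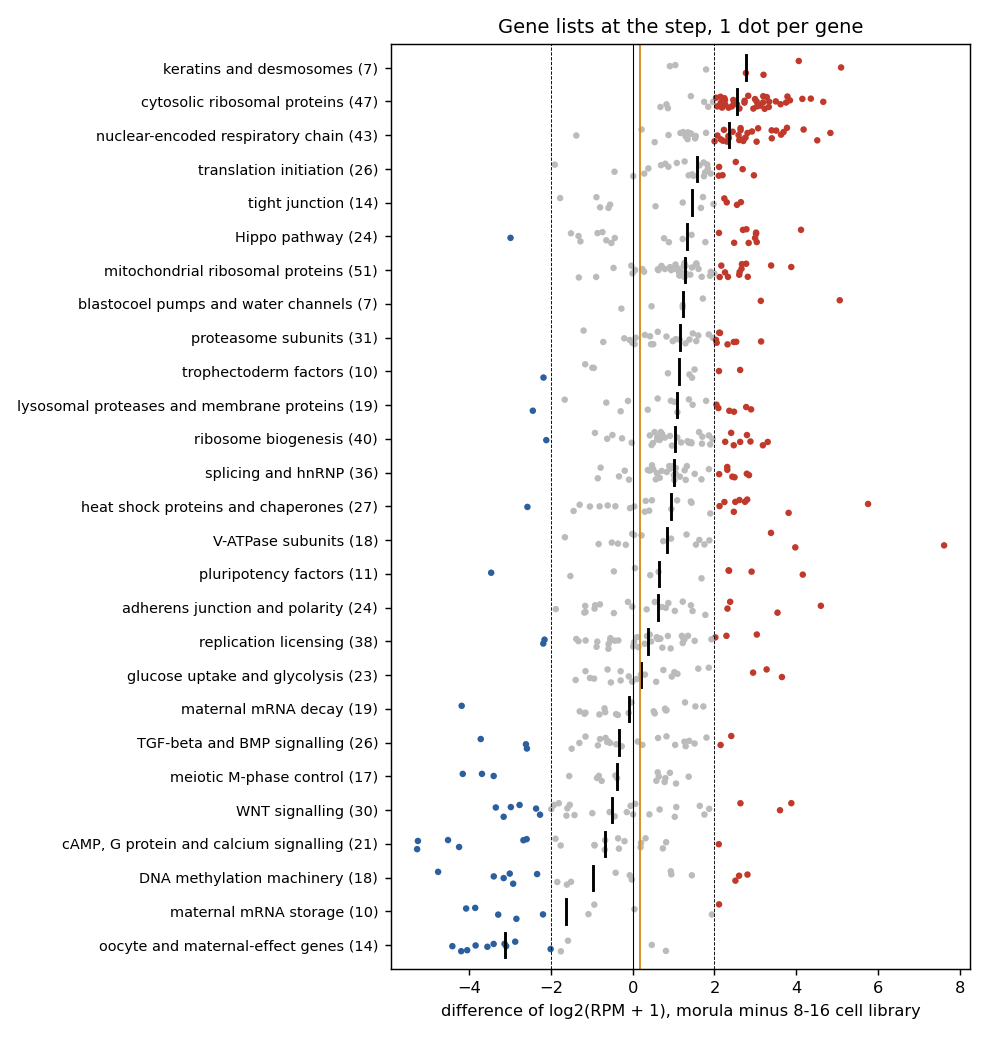
Differences of log2(RPM + 1), morula minus 8-16 cell library, for the compared members of 27 gene lists, 1 dot per gene (red higher, blue lower, grey not past the fold), with the list's median as a black bar and the number compared in brackets. The orange line is the median of all compared genes, 0.18; ribosomal, respiratory chain and desmosome lists lie to the right and oocyte and mRNA storage lists to the left.

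The oocyte carries no Y chromosome, and rows placed on the Y chromosome were looked at after their values were seen. Of 17 compared rows 5 rose and none fell, and 15 lay above 0. In the oocyte library 14 of the 17 had 0 reads. ENSSSCG00000038027, ENSSSCG00000038192 and ENSSSCG00000032661 had 56, 6 and 1 reads there, so their reads need not come from the Y chromosome. ENSSSCG00000038027 and ENSSSCG00000038192 were also the rows below 0, at -1.30 and -0.99. The summed level of the 14 rows without oocyte reads was 0, 6.04, 86.2, 499.5 and 572.4 RPM over the 5 libraries. DDX3Y, an RNA helicase gene of the Y chromosome, had 0, 0, 2.53, 142.9 and 126.0 RPM and overlaps another row, and EIF1AY had 0, 0, 0, 10.7 and 21.985 RPM. UTY, with 0, 2.17, 13.6, 27.3 and 33.8 RPM, did not pass the fold. The number of male embryos per library is not given, so their share and the level per embryo cannot be told apart.

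Markers of cells other than the embryo's were low or did not move together, except that both compared sperm and testis markers rose. Of 14 cumulus and granulosa markers with a row, 8 were compared, 1 rose and 2 fell, and they summed to 227 RPM before and 399.6 RPM after the step, most of it VCAN (139 to 338 RPM). TNFAIP6, INHA, INHBA and PTX3 had 0 reads in both. Of 8 leukocyte and erythrocyte markers none of the 4 compared passed the fold, with sums of 9.48 and 7.33 RPM, and CD14, HBB and TYROBP had 0 reads in both. Fibroblast and endothelium markers summed to 15.8 and 15.3 RPM, with 1 of 5 compared genes higher (DCN, 2 reads to 19) and 1 lower (COL1A2, 14 reads to 1), and CDH5, KDR and PDGFRB had 0 reads in both. Of 10 sperm and testis markers 2 were compared and both rose, AKAP4 from 1 read to 65 and SPACA1 from 0 reads to 31. The protamines PRM1 and PRM2 and the markers TNP1, ODF1, ACR and TSSK6 had 0 reads in both libraries.

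The genes called at the step were then followed in the pig oocyte and blastocyst libraries, which the step does not use. Between these, 26.0% of 12512 compared genes were higher in the blastocyst library and 19.2% lower. Of 1435 genes that rose at the step and had at least 1 RPM in the oocyte or blastocyst library, 943 (65.7%) were higher in the blastocyst and 18 (1.25%) lower, with a median difference of 2.88. Of 1370 that fell at the step, 990 (72.3%) were lower and 25 (1.82%) higher, with a median of -3.29. Genes not past the fold at the step had 21.97% higher and 16.0% lower of 8603. Seen from the other side, the genes that rose at the step made up 29.0% of all genes higher in the blastocyst library, and those that fell made up 41.3% of all genes lower in it.

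**Figure D5:**
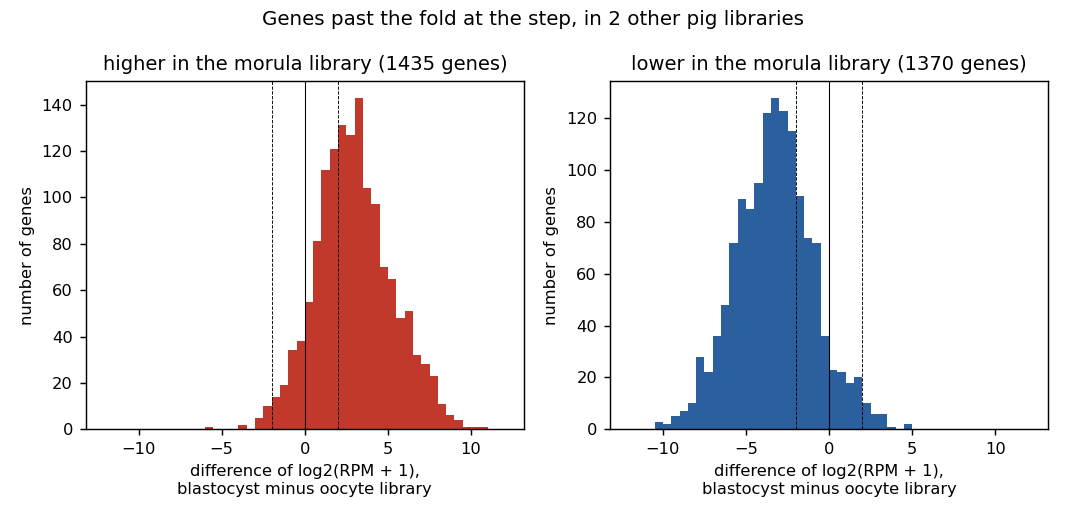
Differences of log2(RPM + 1) between the pig blastocyst and oocyte libraries for the 1435 genes that rose (left, red) and the 1370 that fell (right, blue) at the step and had at least 1 RPM in either of these 2 libraries, as numbers of genes per bin. Dashed lines mark a difference of 2; 943 of the genes that rose lie above the upper line and 990 of those that fell lie below the lower one.

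The same step in the cow, also with 1 library per stage, gave smaller shares: 6.67% of compared genes were higher and 5.15% lower. The tables of the species were scaled separately, so only differences within a species were set side by side, for 8420 symbols compared in both. Of 1039 symbols that rose in the pig 93 also rose in the cow, which is 8.95% of the pig list and 16.6% of the 560 that rose in the cow, and 28 fell. Of 893 that fell in the pig 112 fell in the cow, 12.5% of the pig list and 25.6% of the cow list, and 56 rose. ATP6V0D2 rose in both, with 20.8 and 246.2 RPM in the cow libraries, as did RBM47 (6.995 and 45.1 RPM) and SUCLG1 (0.552 and 10.3 RPM). RGS2 fell in both (195.1 and 10.8 RPM in the cow), as did NLRP8 (123.2 and 18.2 RPM) and KCNN3 (25.6 and 4.36 RPM). CCT4 had 190.7 and 184.4 RPM in the cow, and DNMT1 had 57.4 and 25.9 RPM, neither past the fold. Both changed more between the 2-4 cell and 8-16 cell libraries of the cow. In its oocyte, 2-4 cell and 8-16 cell libraries CCT4 had 36.9, 32.9 and 190.7 RPM and DNMT1 400.0, 556.7 and 57.4 RPM.

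By list, 10 of 14 oocyte genes were lower in the pig and 6 of 14 in the cow, with medians of -3.12 and -1.97. Of 43 cytosolic ribosomal protein genes compared in both, 36 rose in the pig and none passed the fold in the cow, with medians of 2.47 and 0.62. Earlier steps in the cow were not compared by list. RPS12 and RPS3A went from 16.2 and 24.1 RPM in the cow 2-4 cell library to 217.0 and 105.5 RPM in its 8-16 cell library. Respiratory chain genes rose at 29 of 43 in the pig and 6 of 43 in the cow, with medians of 2.35 and 1.02. In the Hippo pathway 10 of 22 rose in the pig and 3 of 22 in the cow, and 8 heat shock and chaperone genes of 24 rose in the pig and 1 in the cow. The differences between the species were not tested, since each had 1 library per stage.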

How the data were processed

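RNA was extracted with the PicoPure kit, amplified as cDNA with Ovation RNA-Seq System V2 and made into libraries with 8 PCR cycles, per the labels' protocols, with no molecular identifiers described. The submitters' processing notes name Trim Galore 0.6.4, HISAT2 2.1.0 and the builds Sscrofa11.1 and UMD3.1, and coordinates are those of the authors' table. The annotation, the counting tool and its use of strand, repeated matches and duplicates are not given in the sources used here. The deposited values are log2 RPM per gene and stage, per the file headers and the values: above the lowest value, at least 99.97% of values in each pig column are whole multiples of 1 read within 0.02 read, and 0 reads is written as 0.9 read. Reads were recovered from these steps, and values were raised to the power of 2.

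Differences of log2(RPM + 1) were computed with Python 3.11.15, numpy 2.4.6, pandas 2.3.3 and scipy 1.17.1. They understate changes of low genes. With 1 library per group no test was made, and a count test on recovered reads could not be fitted. The fold rule was tried on simulated data, which cannot replace the missing replicates, and no conclusion is drawn from that trial. Ratio intervals are exact conditional binomial (Clopper-Pearson) intervals at 95%. The 48 gene lists and the thresholds were chosen with earlier results of these data known. Genes named are the 15 symbols with the largest rises and the 15 with the largest falls among rows with at least 10 RPM and no overlapping row, list members past the fold (in lists with more than 6, the 3 largest per direction), and genes at the centre of a list. A few others, named outside this rule, were chosen after their values were seen. Some genes that the rule would name are not reported here.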

Additional observations from a re-analysis of the deposited data

Results flagged for a closer look

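The following 4 named genes passed the fold at this step in opposite directions in the species, lower in the pig and higher in the cow. The difference between the species was not tested, since each stage had 1 library. SLC8A1, a sodium-calcium exchanger, had 119 to 9.99 RPM in the pig and 73.6 to 702.9 RPM in the cow, and the pig difference minus the cow difference was -6.68 on the log2(RPM + 1) scale. For BCL2L1, an inhibitor of apoptosis, the levels were 344 to 22.6 RPM in the pig and 3.68 to 29.5 RPM in the cow, and the same quantity was -6.57. FGF1 had 35.4 to 2.997 RPM in the pig and 1.66 to 12.6 RPM in the cow, a value of -5.54. CYP19A1, the aromatase that makes oestrogens, had 33 reads and 5 reads in the pig and 2 and 23 in the cow, a value of -4.43. The pig rows of BCL2L1 and CYP19A1 overlap other rows.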

How the results depend on the processing

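The number of genes past the fold was 2968 as reported and moved by more than 1.5 times under 4 alternatives. With a pseudocount of 5 RPM it was 1501 (796 higher, 705 lower). At a threshold of 1 it was 7189 (3943 higher, 3246 lower) and at a threshold of 3 it was 897 (424 higher, 473 lower). Among symbols whose span is shared with no other row it was 1748 (861 higher, 887 lower), since fewer genes were compared. Scaling to gene reads without mitochondrial rows gave 1482 higher and 1482 lower, quantile normalisation 1376 and 1570, and the median difference set to 0 gave 1292 and 1700. The share of higher genes among those past the fold was 51.7% as reported and ranged from 43.2% to 54.8% over the alternatives. Of 209 named genes past the fold, 153 stayed past it in all 9 settings tried for single genes and none reversed; 54 were no longer past it with a pseudocount of 5 RPM. In lists with 5 or more genes in a direction, a pseudocount of 5 RPM moved these counts of higher genes by more than 1.5 times: respiratory chain from 29 to 15, mitochondrial ribosomal proteins from 12 to 6, Hippo pathway from 10 to 5, proteasome from 8 to 5, mitochondrial carriers from 8 to 5, splicing from 7 to 4, lysosome from 6 to 1, other solute carriers from 22 to 11 and ZNF genes from 14 to 7. It also moved the lower counts of histone methylation enzymes from 5 to 3, other solute carriers from 24 to 14 and ZNF genes from 21 to 9. With the median difference set to 0 or quantile normalisation, 4 proteasome genes were higher, and with a pseudocount of 0.5 RPM 5 glycolysis genes were, against 3. Without a minimum of 1 RPM the median differences of 6 lists (primitive endoderm, protocadherins, apoptosis, TGF-beta and BMP, S100 proteins and annexins, and cumulus and granulosa markers) changed sign, all to 0.0173, the difference of a gene with 0 reads in both libraries, since undetected genes then entered. With a minimum of 5 RPM the apoptosis median went from -0.07 to 0.67. Medians near 0 changed sign with the median difference set to 0: FGF and ERK signalling from 0.13 to -0.04, leukocyte and erythrocyte markers from 0.09 to -0.09, and solute carriers and ZNF genes from 0.01 to -0.17. The planned thinning of the 8-16 cell library to the gene reads of the morula library was not run, because the 8-16 cell library had fewer gene reads (2574338 against 2664383). Thinning the morula library instead, chosen after seeing the data, gave 1529 higher and 1427 lower, and writing 0 reads as 0 RPM, also chosen then, gave 1595 and 1540. No paired analysis was possible because each group had 1 library.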

Other observations

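Some further genes past the fold with many reads, not described above, were chosen after their values were seen. Among those that rose, TPT1, a translationally controlled protein of growing cells, had 90.004, 22.5, 382, 2807 and 3724 RPM, CCNG1, cyclin G1, had 216, 259, 249, 1391 and 1133 RPM, and SLC31A1, the copper importer, had 23.4, 213, 638, 3874 and 1699 RPM. TUBA1B, an alpha tubulin, had 131, 97.4, 102, 1295 and 1518 RPM. The rows of SLC31A1 and TUBA1B overlap others. ENSSSCG00000040337, which has no symbol and overlaps another row, had 211, 155, 185, 2468 and 3.22 RPM, with the peak in the morula library.

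Among those that fell, SIN3A, the scaffold of a histone deacetylase complex, had 4405, 5109, 3878, 301 and 153 RPM, and TP53RK, a kinase of the complex that modifies tRNA, had 6621, 3021, 2466, 226 and 142 RPM. Both overlap other rows. CD28, known as a receptor of T cells, had 1562, 2217, 2429.8, 349 and 3.22 RPM. ESCO2, which acetylates cohesin, had 1210.3, 1515, 1514, 169 and 23.9 RPM, and RRM2B, a subunit of ribonucleotide reductase, had 1538, 2059, 1372, 109.9 and 34.9 RPM, while RRM2 of the same enzyme rose (12.3 to 108 RPM). ENSSSCG00000035520, without a symbol, had 602, 1088, 1445, 21.6 and 21.4 RPM and the largest fall of any row, -6.00.

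Genes that fell had a median genomic span of 50426 bases, genes that rose 29163.5 bases and genes not past the fold 37073.5 bases. Among genes with 500 RPM or more in the higher library, 17.0% of 348 rose and 24.1% fell, and among those between 1 and 5 RPM 1.29% and 1.59% of 3020 did. The latter shares follow largely from the fold rule. With 1 RPM added, a gene in this range can pass only near its upper end.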
